A study of Mus musculus with 7 samples.

Results

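Krüppel-like factors (KLFs) are DNA-binding proteins that end in a tandem of C2H2 zinc fingers and bind GC boxes and CACCC boxes, short G- and C-rich stretches common in promoters. The genes described here are Klf2, Klf3, Klf4, Klf5, Klf6, Klf7, Klf9, Klf10, Klf13 and Klf16, which were taken by their symbols as 10 of the 55484 rows of a gene count table. The remaining 7 KLF genes of the table, Klf1, Klf8, Klf11, Klf12, Klf14, Klf15 and Klf17, are given beside them. RNA-seq counts were compared between 4 libraries of mouse embryonic fibroblasts (MEFs) and 3 libraries of mouse embryonic stem cells (mESCs), all labelled C57/Bl6 background, with no treatment named. The study sorted Thy1+ MEFs and Thy1-/Ssea1+/Epcam+ mESCs for its chromatin libraries and took the RNA data from a set its laboratory already held, so whether the RNA libraries came from sorted cells is not given in the sources used here. The number of lines and embryos behind the libraries, and the time in culture, are likewise not given there.

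The family is divided by the partner proteins its members recruit. The activator branch (Klf1, Klf2, Klf4, Klf5, Klf6 and Klf7) works largely through acetyltransferases such as the products of Ep300 and Crebbp. The CtBP-binding branch (Klf3, Klf8 and Klf12) represses its targets through C-terminal binding proteins. The SIN3A-binding branch (Klf9, Klf10, Klf11, Klf13, Klf14 and Klf16) recruits a histone deacetylase complex. In mESCs, Klf2, Klf4 and Klf5 are known as overlapping supports of self-renewal, with Klf4 downstream of LIF and STAT3 signalling, and Klf4 is one of the factors used to reprogram fibroblasts to pluripotency. Members of the family share their DNA-binding part, so that several of them recognise nearly the same motif, and the count table can show which of the genes is transcribed in a cell type.

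The stretch of the transcript that codes for the zinc fingers is shown for Klf4 and Klf2, which had the largest rises of the 10 genes in mESCs, and for Klf6 and Klf7, which had the largest falls. Each pair is also a pair of closest relatives. The sequences come from GENCODE M21 transcripts of the GRCm38 build and run from the first cysteine codon of the first finger to the last histidine codon of the last, 243 bases in each of the 17 KLF genes. In Klf4, capitals mark the cysteine and histidine codons that hold the zinc. In the other sequences, capitals mark bases that differ from Klf4. The stretch of Klf4 spans chr4:55528131-55529790 on the minus strand (exons 4 and 5), that of Klf2 chr8:72320170-72320913 on the plus strand (exons 2 and 3), that of Klf6 chr13:5865272-5867277 on the plus strand (exons 2 to 4) and that of Klf7 chr1:64035719-64078779 on the minus strand (exons 2 to 4).
Klf4: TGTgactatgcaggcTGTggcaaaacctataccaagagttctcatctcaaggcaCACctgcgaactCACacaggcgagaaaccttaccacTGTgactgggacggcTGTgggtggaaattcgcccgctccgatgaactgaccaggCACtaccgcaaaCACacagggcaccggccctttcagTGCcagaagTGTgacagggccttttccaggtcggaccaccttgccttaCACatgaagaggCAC
Klf2: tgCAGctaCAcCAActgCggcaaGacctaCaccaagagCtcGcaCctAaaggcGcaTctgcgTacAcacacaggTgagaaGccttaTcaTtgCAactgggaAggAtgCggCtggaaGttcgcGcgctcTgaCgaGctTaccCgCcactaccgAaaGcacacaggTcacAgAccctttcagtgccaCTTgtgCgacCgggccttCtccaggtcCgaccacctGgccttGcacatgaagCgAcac
Klf6: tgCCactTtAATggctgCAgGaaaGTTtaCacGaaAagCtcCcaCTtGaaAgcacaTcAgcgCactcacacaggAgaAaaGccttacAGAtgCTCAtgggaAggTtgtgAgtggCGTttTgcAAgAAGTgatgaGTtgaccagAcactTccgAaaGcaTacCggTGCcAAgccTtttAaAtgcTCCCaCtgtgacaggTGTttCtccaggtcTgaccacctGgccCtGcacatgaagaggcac
Klf7: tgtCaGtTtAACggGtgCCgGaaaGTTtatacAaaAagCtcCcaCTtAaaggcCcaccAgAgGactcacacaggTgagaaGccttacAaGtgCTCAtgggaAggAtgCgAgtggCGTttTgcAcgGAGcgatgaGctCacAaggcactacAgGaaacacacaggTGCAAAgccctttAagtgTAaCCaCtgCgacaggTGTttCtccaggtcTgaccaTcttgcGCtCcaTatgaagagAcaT
Klf2 differed from Klf4 at 53 of the 243 bases, Klf6 at 76 and Klf7 at 74.

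Over the 45 pairs of the 10 genes, between 57.2% and 81.1% of the bases in this stretch were identical, with a median of 65%. Klf6 and Klf7 were the closest pair at 81.1%, followed by Klf2 and Klf4 at 78.2%. Klf13 and Klf16 were identical at 75.3% of the bases and Klf3 and Klf5 at 73.7%. Among the 10 genes, Klf9 was nearest to Klf13, at 72.8%, and Klf10 was also nearest to Klf13, at 69.1%. The longest run of identical bases in any of these pairs was 26, and no stretch of 50 bases was shared between the exons of any of the 17 KLF genes.

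**Figure D1:**
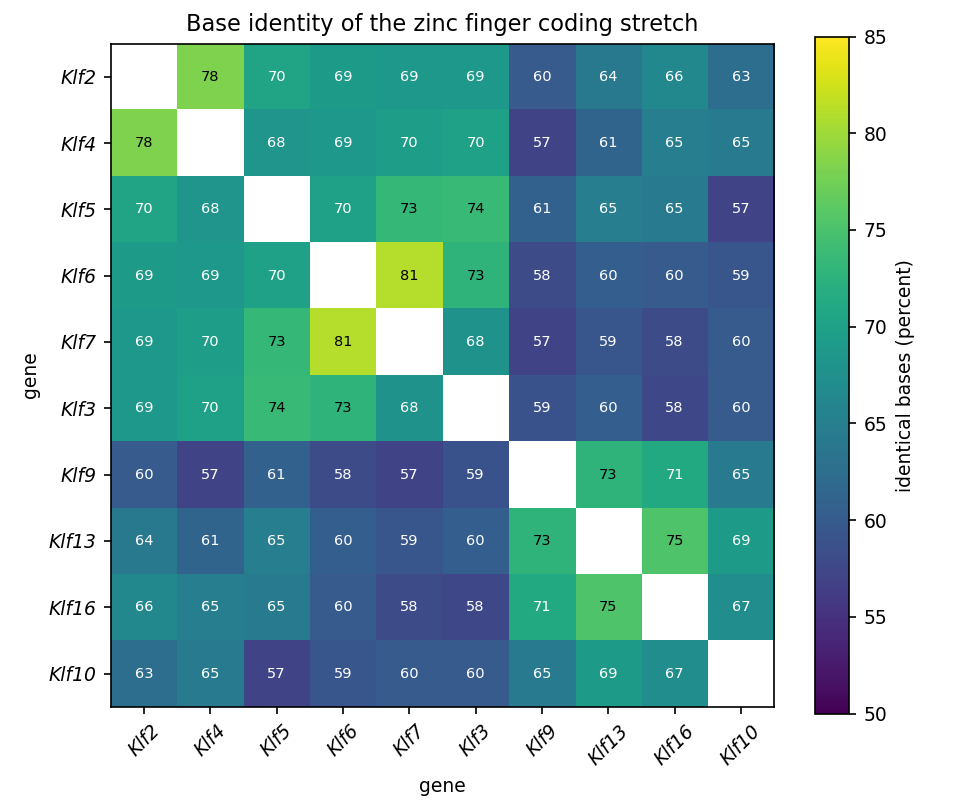
Percent of identical bases in the zinc finger coding stretch for each pair of the 10 KLF genes, with genes on both axes and the percentage written in each cell. Klf6 with Klf7 (81.1%) and Klf2 with Klf4 (78.2%) are the brightest pairs, and Klf9 with Klf4 is at 57.2%.

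Of the 10 genes, 5 were higher in mESCs (Klf2, Klf3, Klf4, Klf5 and Klf9), 3 were lower (Klf6, Klf7 and Klf13), and Klf10 and Klf16 did not pass the threshold of an adjusted p of 0.05 in edgeR's quasi-likelihood test, fitted over all 7 libraries with Benjamini-Hochberg adjustment over 16580 genes. Every adjusted p below comes from this fit unless another setting is named, and SE is the standard error. Of all genes tested, 47.9% passed, 22.8% in the higher and 25.0% in the lower direction. The 8 called genes were also the 8 whose MEF and mESC libraries did not overlap, which held for 52.1% of all genes tested. The median log2 fold change (mESC minus MEF) was 0.41 over the 10 genes and 0.04 over all genes tested. Against a fold change of at least 2, Klf2, Klf4, Klf5, Klf6, Klf7 and Klf9 passed, 6 of 10, beside 24.1% of all genes tested. Levels below are in CPM, read counts scaled to library size, with TMM factors that correct library sizes for differences in RNA composition. In every list of values, the MEF libraries stand in the order 11441278, 7312679, 9176467 and 6528643 total counts and the mESC libraries in the order 8193825, 8057985 and 7462710, and a library is named by its total. A count of 3, taken as the floor, corresponds to 0.288 to 0.477 CPM, and all 10 genes lay far above it in every library.

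**Figure D2:**
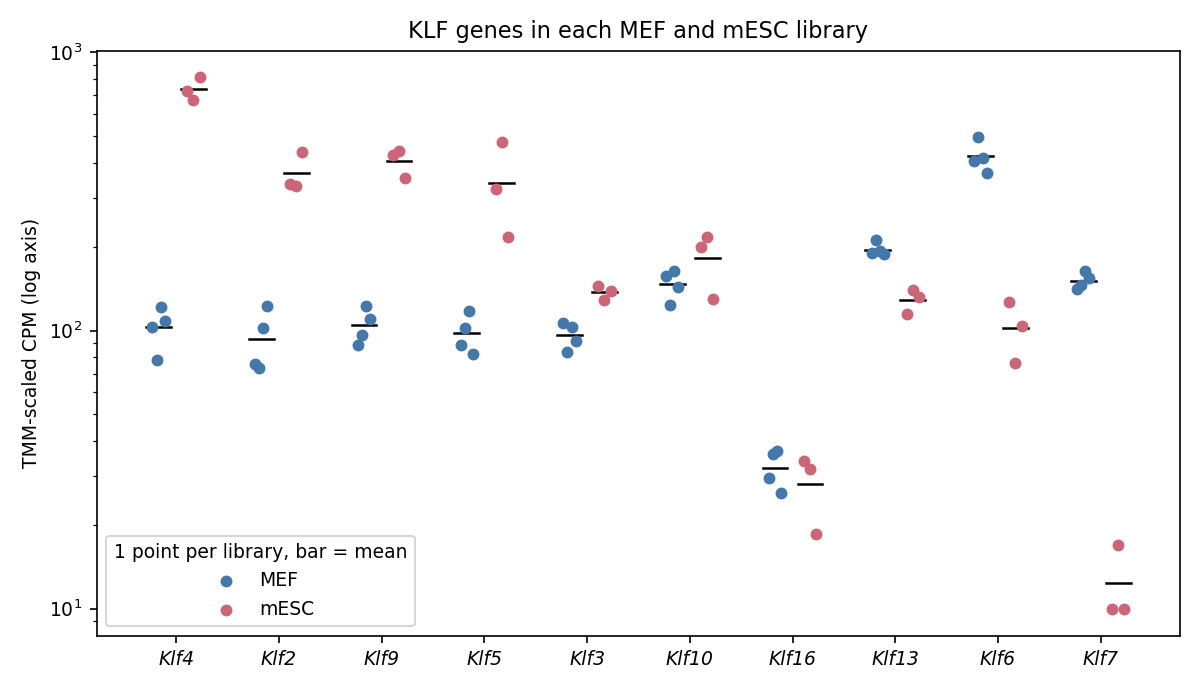
TMM-scaled CPM on a log axis for each of the 10 KLF genes, with 1 point per library (4 MEF, 3 mESC) and a bar at the mean of each cell type. The MEF and mESC points are apart for 8 genes and overlap for Klf10 and Klf16, with Klf4 highest in mESCs (672 to 813 CPM) and Klf7 lowest (9.97 to 17 CPM).

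The libraries were first compared with the markers of their labels. All 17 pluripotency markers were higher in mESCs, with a sum of 4045.6 to 4640.1 CPM against 111 to 126 CPM in MEFs. All 17 fibroblast markers were lower in mESCs, with a sum of 396 to 446 CPM against 27129.6 to 43953.5 CPM. Libraries of 1 cell type differed beyond sampling noise in each of the 9 pairs, with a chi-square per degree of freedom of 15.6 to 31.1. The study calls its transcriptional samples biological replicates and gives the same number for both cell types, whereas the count table has an extra MEF column. All count columns carry the same leading number in their names, and whether it marks a shared sample is not given. Whether the replicates are separate cultures, lines or animals is not given in the sources used here, so the p-values measure the spread between these libraries, part of which may be technical. In these bulk libraries, fewer cells that express a gene and less RNA per cell cannot be told apart.

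Klf4 had the largest rise of the 10 genes. It is an activator with roles in pluripotency and in the epithelium of skin and gut, and lies on the minus strand of chromosome 4 (55527143 to 55532466, GRCm38). It had 103, 78.4, 121 and 108 CPM in the MEF libraries and 727, 672 and 813 CPM in the mESC libraries. Every mESC library stood far above every MEF library. The means were 103 ± 17.7 CPM (SD, n = 4) and 737 ± 71.4 CPM (SD, n = 3), and the log2 fold change was 2.85 ± 0.163 (SE) at an adjusted p of 3.12e-07. By its mean level Klf4 stood at percentile 87.7 of all genes tested in MEFs and at percentile 99.1 in mESCs.

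Klf2, an activator that also keeps endothelium and T cells quiescent, lies on chromosome 8 (72319033 to 72321656). It had 76.1, 73.6, 102 and 122 CPM in the MEF libraries and 337, 331 and 440 CPM in the mESC libraries. The mESC libraries were all higher, and the highest of them was the library of 7462710 counts, which was also the highest for Klf4. The means were 93.6 ± 23.2 CPM (SD, n = 4) and 369 ± 61.5 CPM (SD, n = 3), which gave a log2 fold change of 1.98 ± 0.203 (SE) at an adjusted p of 1.88e-05.

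Klf5, an activator of proliferating epithelium and of the early embryo, lies on chromosome 14 (99298691 to 99315036). It had 88.5, 102, 118 and 82.4 CPM in the MEF libraries and 323, 478 and 216 CPM in the mESC libraries. All mESC libraries lay above all MEF libraries, but they spread 2.21-fold among themselves, the widest of the 10 genes in mESCs. The library with the least Klf5 was the one with the most Klf2 and Klf4. The means were 97.8 ± 15.9 CPM (SD, n = 4) and 339 ± 131 CPM (SD, n = 3), and Klf5 changed by 1.79 ± 0.243 (SE) on the log2 scale at an adjusted p of 0.000142. Without the mESC library of 8057985 counts the log2 fold change was 1.46, and without that of 7462710 counts it was 2.03.

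Klf6 and Klf7, the remaining activators of the 10, went the other way. Klf6, which is known from wound repair and as a growth-restraining gene, lies on chromosome 13 (5861482 to 5870394). It had 407, 497, 417 and 369 CPM in the MEF libraries and 127, 76.5 and 104 CPM in the mESC libraries, so that the lowest MEF library was well above the highest mESC library. The means were 422 ± 53.6 CPM (SD, n = 4) and 103 ± 25.2 CPM (SD, n = 3), and the log2 fold change was -2.04 ± 0.194 (SE) at an adjusted p of 1.11e-05.

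Klf7, known mainly from neurons and fat cell precursors, lies on the minus strand of chromosome 1 (64029447 to 64122282) and had the largest change of the 10 genes in either direction. It had 141, 146, 163 and 154 CPM in the MEF libraries and 9.97, 17 and 10 CPM in the mESC libraries. The MEF libraries were close to each other, and each mESC library was many times lower. Klf7 had a log2 fold change of -3.61 ± 0.231 (SE) at an adjusted p of 6.31e-07, or 12.2-fold lower, between means of 151 ± 9.64 CPM (SD, n = 4) and 12.3 ± 4.07 CPM (SD, n = 3). On the opposite strand the long noncoding RNA gene Gm26649 covers 39.3% of the exon bases of Klf7. The strand setting of the counting is not given in the sources used here and Gm26649 was not analysed here, so reads of the overlapping genes cannot be told apart.

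Klf3, the CtBP-binding repressor of the 10, lies on chromosome 5 (64803388 to 64832901). It had 106, 84, 103 and 91.9 CPM in the MEF libraries and 145, 129 and 139 CPM in the mESC libraries. The mESC libraries were all higher, by a small margin. For Klf3 the log2 fold change was 0.52 ± 0.143 (SE) at an adjusted p of 0.0123. The call was lost without a filter on low counts (adjusted p = 0.056) and without the mESC library of 8193825 counts (adjusted p = 0.0505), with log2 fold changes of 0.48 and 0.47. The exons of Klf3 overlap those of Gm20033 on the opposite strand over 3.59% of their bases.

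Of the 4 SIN3A-binding genes, Klf9 rose, Klf13 fell, and Klf10 and Klf16 did not pass. Klf9, a gene induced by glucocorticoid and thyroid hormone, lies on chromosome 19 (23141226 to 23168134). It had 88.9, 96.6, 122 and 110 CPM in the MEF libraries and 426, 441 and 352 CPM in the mESC libraries. The mESC libraries were all higher, and unlike for Klf2 and Klf4 the library of 7462710 counts was the lowest of them. This gave Klf9 a log2 fold change of 1.96 ± 0.155 (SE) at an adjusted p of 2.85e-06, close in size to that of Klf2.

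Klf13, a regulator of T cell and heart genes, lies on the minus strand of chromosome 7 (63886351 to 63938915). It had 190, 211, 193 and 188 CPM in the MEF libraries and 115, 140 and 132 CPM in the mESC libraries. The groups did not overlap, and the MEF libraries were within 1.12-fold of each other. The fitted log2 change of Klf13 was -0.60 ± 0.136 (SE) at an adjusted p of 0.00405. Without TMM scaling it was -0.32 and the call was lost (adjusted p = 0.0709). That setting raised the log2 fold changes of all genes, whose median moved from 0.04 to 0.32.

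Klf10, an early target of TGF-beta signalling, lies on the minus strand of chromosome 15 (38291463 to 38300706). It had 157, 124, 163 and 143 CPM in the MEF libraries and 200, 217 and 130 CPM in the mESC libraries. The mESC library of 7462710 counts lay among the MEF libraries and the others above them. The fitted log2 change of Klf10 was 0.31 ± 0.19 (SE) at an adjusted p of 0.206. It passed the threshold without TMM scaling (0.59, adjusted p = 0.0215) and without the mESC library of 7462710 counts (0.50, adjusted p = 0.0379).

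Klf16, which is the least counted of the 10 genes in MEFs, lies on the minus strand of chromosome 10 (80567124 to 80577321). It had 29.5, 36, 36.8 and 26.1 CPM in the MEF libraries and 33.9, 31.9 and 18.5 CPM in the mESC libraries. The groups overlapped, and the mESC library of 7462710 counts was again the lowest. For Klf16 the log2 fold change was -0.19 ± 0.243 (SE) at an adjusted p of 0.56. Its sign turned without TMM scaling (0.09) and without that library (0.03).

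**Figure D3:**
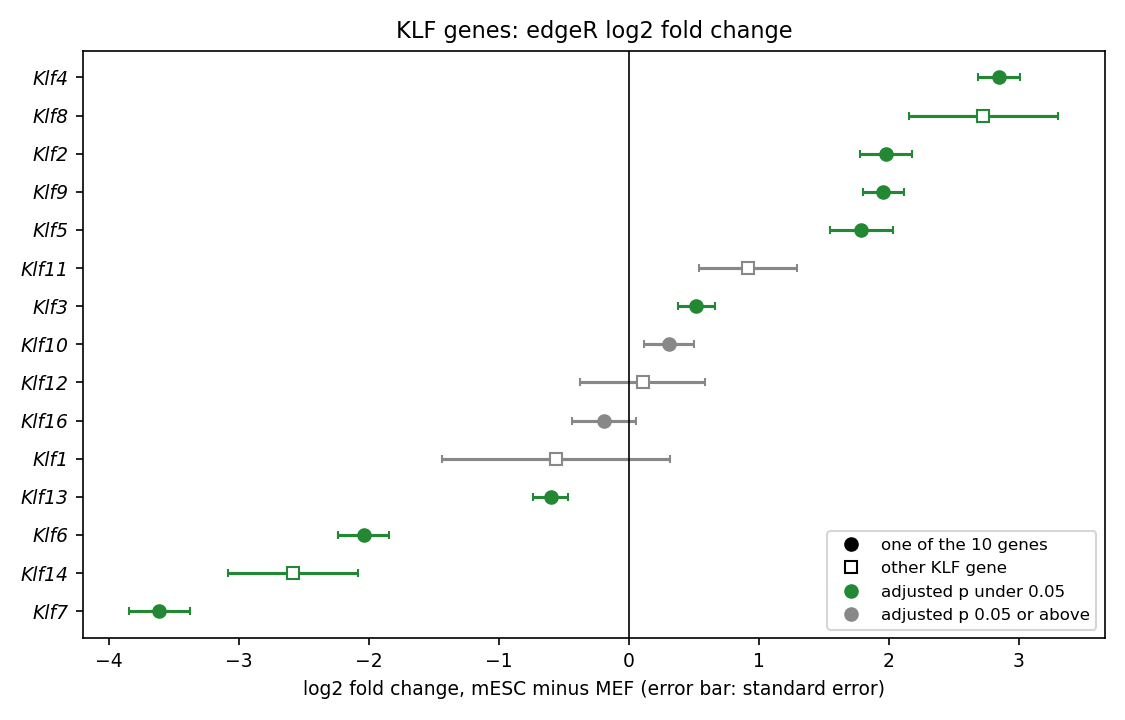
Log2 fold change (mESC minus MEF) with its standard error for the 15 KLF genes that entered the test, where circles are the 10 genes, open squares the other KLF genes, and green marks an adjusted p under 0.05 in edgeR. Klf4 (2.85) and Klf8 (2.73) are at the top and Klf7 (-3.61) and Klf14 (-2.58) at the bottom.

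The spread between libraries of 1 cell type was compared with that of other genes. The ratio of the highest to the lowest library had a median of 1.36 over the 10 genes in MEFs, beside 1.78 over all genes tested, and of 1.49 in mESCs, beside 1.52. In MEFs it ran from 1.12 (Klf13) to 1.66 (Klf2). In mESCs it ran from 1.12 (Klf3) to 2.21 (Klf5), and Klf16 followed Klf5 with 1.83. By mean level among all genes tested, the 10 genes stood at percentile 69 or above in MEFs and 52.1 or above in mESCs. The part of expression level in this ratio was not tested.

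The sum of the 10 genes was higher in mESCs. It was 1387.4, 1448.6, 1539.2 and 1394.4 CPM in the MEF libraries and 2442.9, 2532.8 and 2355.2 CPM in the mESC libraries. The mESC libraries all stood above the MEF libraries, with means of 2443.6 ± 88.8 CPM (SD, n = 3) and 1442.4 ± 70.1 CPM (SD, n = 4) and a ratio of 1.69. Without TMM scaling the means were 2730.8 and 1326.6 CPM and the ratio was 2.06. No test was made of the sum, since the genes were chosen with results known. The 7 other KLF genes held between 1.44% and 2.87% of the counts of all 17 KLF genes in a library.

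The make-up of this sum differed between the cell types. Klf6 held 29.3% ± 3.55 of the counts of the 10 genes in MEFs (SD, n = 4) and 4.21% ± 1.1 in mESCs (SD, n = 3), and went from place 1 to place 8. Klf4 held 5.41% to 7.84% in the MEF libraries and 26.5% to 34.5% in the mESC libraries, and went from place 6 to place 1. Klf9 went from 7.22% ± 0.795 to 16.6% ± 1.44 and Klf2 from 6.5% ± 1.66 to 15.2% ± 3.06, with the same n. Klf5 went from 6.75% ± 0.773 to 13.8% ± 4.86. Klf2, Klf4 and Klf5 together held 17.6% to 22.4% of the family in the MEF libraries and 56.8% to 62.4% in the mESC libraries.

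As counted, the share of Klf2, Klf4 and Klf5 together spread less than its parts in mESCs. Klf5 was low in the library in which Klf2 and Klf4 were high. The SD of the sum was 2.9 percentage points, beside 3.06 for Klf2, 4.03 for Klf4 and 4.86 for Klf5. Shares of 1 total move against each other by construction. The smaller spread of the sum was not seen in MEFs, where the SD was 2.35 for the sum, 1.66 for Klf2, 1.15 for Klf4 and 0.773 for Klf5. With counts divided by exon length, the SDs in mESCs were 3.74 for the sum, 4.27 for Klf2, 2.9 for Klf4 and 3.69 for Klf5. On that scale the sum thus spread more than Klf4 and Klf5. Klf6 and Klf7 together went from 39.8% ± 3.19 to 4.72% ± 0.959. Klf13 went from 13.6% ± 0.834 to 5.28% ± 0.497 and Klf10 from 10.2% ± 1.17 to 7.43% ± 1.65. The share of Klf3 was 6.67% ± 0.746 in MEFs and 5.63% ± 0.463 in mESCs, and Klf3 was the only gene of the 10 whose shares as counted overlapped between MEF and mESC libraries. The share of Klf3 was thus lower on average in mESCs while its level was higher, against a sum that was higher too.

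**Figure D4:**
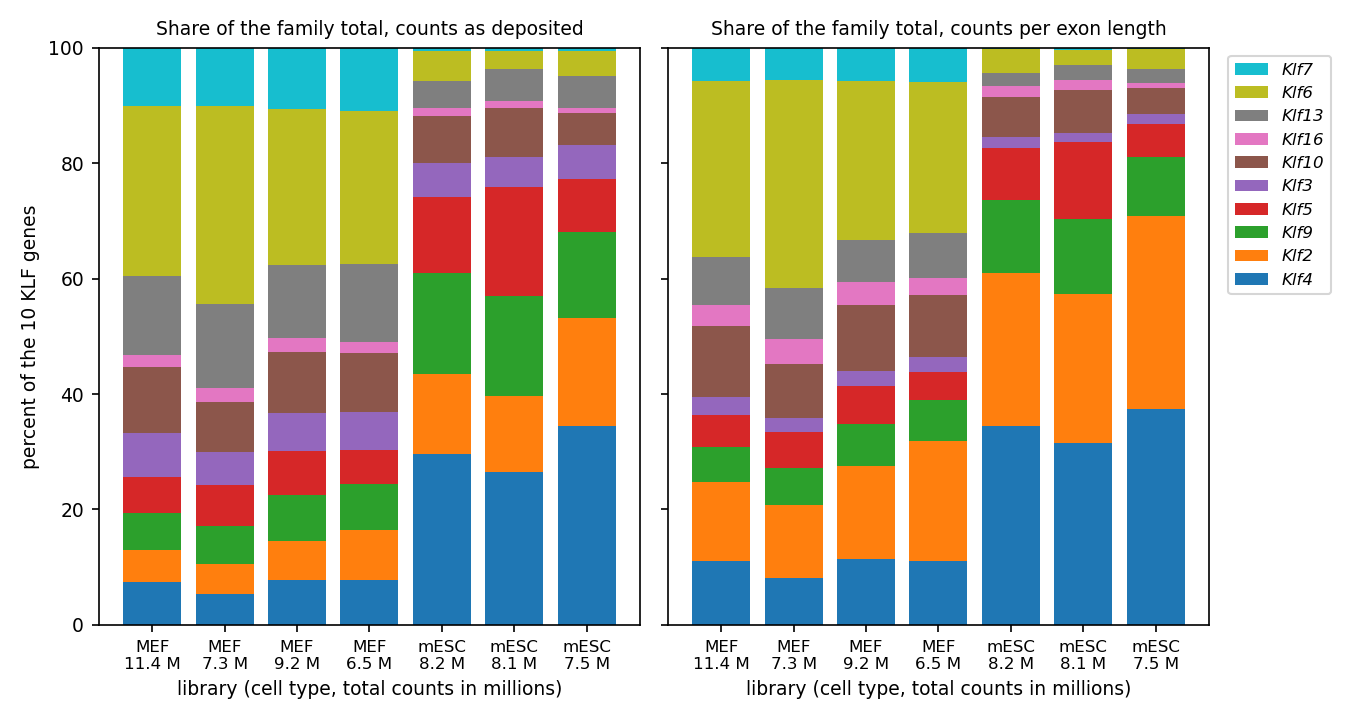
Percent of the summed counts of the 10 KLF genes held by each gene, as 1 stacked bar per library (4 MEF, then 3 mESC), on the left from the counts as deposited and on the right from counts divided by exon length. Klf6 (29.3% on average) is the widest band in MEFs and Klf4 (30.3%) in mESCs on the left, and both stay widest on the right.

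Ratios between genes of the same library do not depend on scaling. The count ratio of Klf4 to Klf6 was 0.253, 0.158, 0.289 and 0.293 in the MEF libraries and 5.73, 8.79 and 7.79 in the mESC libraries. Klf6 thus outnumbered Klf4 in every MEF library, and Klf4 outnumbered Klf6 in every mESC library. The ratio of Klf9 to Klf13, from the SIN3A-binding branch, was 0.457 to 0.633 in MEFs and 2.67 to 3.71 in mESCs. That of Klf4 to Klf2 was 0.882 to 1.36 in MEFs and 1.85 to 2.16 in mESCs. The pair Klf6 and Klf7 also changed between themselves, with a ratio of 2.4 to 3.41 in MEFs and 4.49 to 12.7 in mESCs.

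Levels of different genes were compared per kilobase of exon, with exon lengths from GENCODE M21. These are the merged exons of all annotated transcripts of a gene, which can be longer than any 1 transcript. For Klf3 they make 11243 bases, whereas the transcript used above for its zinc finger stretch has 5221. The orders below depend on the merged lengths. Counts need not grow with length in libraries primed at the poly(A) tail, which the labels describe. In MEFs the order of CPM per kilobase was Klf6 (96.2 ± 12.2), Klf2 (50.7 ± 12.6), Klf10 (35.1 ± 4.15), Klf4 (33.6 ± 5.82), Klf13 (26 ± 1.42), Klf9 (21.7 ± 3.05), Klf5 (18.8 ± 3.05), Klf7 (18.6 ± 1.19), Klf16 (12 ± 1.93) and Klf3 (8.55 ± 0.89; SD, n = 4 for each). The library ranges overlapped in 6 of the 45 pairs, namely Klf4 with Klf10 and Klf13, Klf9 with Klf13, Klf5 and Klf7, and Klf5 with Klf7, and were apart in the other 39. In mESCs the order was Klf4 (242 ± 23.4), Klf2 (200 ± 33.3), Klf9 (84.3 ± 9.91), Klf5 (65.2 ± 25.3), Klf10 (43.6 ± 11), Klf6 (23.3 ± 5.73), Klf13 (17.1 ± 1.71), Klf3 (12.2 ± 0.691), Klf16 (10.5 ± 3.13) and Klf7 (1.52 ± 0.5; SD, n = 3 for each). The ranges overlapped in 5 of the 45 pairs, namely Klf4 with Klf2, Klf5 with Klf9 and Klf10, Klf6 with Klf13, and Klf3 with Klf16, although Klf4 was higher than Klf2 in all 3 libraries.

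Dividing by length moved 14 of the 20 mean shares (10 genes in 2 cell types) by more than 1 SD. Klf2, whose exons are the shortest of the 10, went from 15.2% to 28.5% of the family in mESCs and from 6.5% to 15.7% in MEFs. The share of Klf2, Klf4 and Klf5 together was 32% ± 4.22 in MEFs (SD, n = 4) and 72.4% ± 3.74 in mESCs (SD, n = 3) on this scale. Klf6 remained first in MEFs and Klf4 first in mESCs. On this scale the shares of Klf3 were apart (2.37% to 3.09% in MEFs and 1.65% to 1.86% in mESCs), and those of Klf5 overlapped (4.94% to 6.57% in MEFs and 5.84% to 13.2% in mESCs). The labels describe a library primed at the poly(A) tail, in which a long transcript need not give more counts than a short one, so the shares are given on both scales.

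The branches were read beside the background, in which 47.9% of all genes tested were called, 22.8% higher and 25.0% lower. Of the 6 activators, 3 were higher, 2 were lower and Klf1 was not called. Of the 3 CtBP-binding genes, Klf3 and Klf8 were higher and Klf12 was not called. Of the 6 SIN3A-binding genes, 1 was higher (Klf9), 2 were lower (Klf13 and Klf14) and 3 were not called, a called share near that of all genes. Closest relatives by zinc finger bases among the 10 genes moved the same way for Klf2 with Klf4, Klf6 with Klf7 and Klf3 with Klf5. Klf9 and its nearest gene Klf13 moved in opposite directions. Klf16, the nearest gene to Klf13, was not called, nor was Klf10, which is also nearest to Klf13. Over all 17 KLF genes, some of the 10 had a closer relative outside the 10. Klf3 and Klf5 were closer to Klf12 (78.2% and 74.5%), Klf10 to Klf11 (76.1%) and Klf16 to Klf14 (83.1%). Of these relatives, Klf12 and Klf11 were not called and Klf14 was lower. These are counts over a handful of genes and no test was made of them.

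Each of the 7 other KLF genes had at most 20.7 CPM on average in either cell type, led by Klf11 in mESCs and Klf14 in MEFs (14.6 CPM). Klf8, the CtBP-binding relative of Klf3, was counted 2, 6, 11 and 10 times in the MEF libraries against 63, 69 and 42 times in the mESC libraries, with the groups apart. Its log2 fold change was 2.73 ± 0.576 (SE) at an adjusted p of 0.0026. Klf14, a single-exon gene of the SIN3A-binding branch on chromosome 6 (30956023 to 30959078), had 73, 69, 118 and 169 counts in MEFs and 21, 15 and 28 in mESCs. The log2 fold change of Klf14 was -2.58 ± 0.501 (SE) at an adjusted p of 0.00155.

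Klf11, a relative of Klf10, had 72, 46, 169 and 60 counts in MEFs and 158, 208 and 181 in mESCs. The MEF library of 9176467 counts lay among the mESC libraries. The log2 fold change of Klf11 was 0.92 with an adjusted p of 0.0668 (edgeR), and without that MEF library it was 1.40 with an adjusted p of 0.00266. Klf11 was also called by DESeq2 (adjusted p = 0.04), without scaling (adjusted p = 0.0195) and without a filter on low counts (adjusted p = 0.0215). Klf12 and Klf1 had log2 fold changes of 0.11 and -0.56 and did not pass. Klf15, a metabolic regulator, had 6, 0, 2 and 0 counts in MEFs and 34, 32 and 8 in mESCs, and Klf17 had 1, 0, 0 and 0 counts in MEFs and 25, 17 and 3 in mESCs. Both were left out by the filter on low counts. Without that filter they passed with adjusted p of 0.000533 and 0.000279 (edgeR). That fit gave an adjusted p of 1.86e-59 for Klf4, beside 3.12e-07 in the reported fit, at log2 fold changes of 2.81 and 2.85. For Klf3 its adjusted p was higher, 0.056 beside 0.0123. Its p-values are thus not comparable with those of the reported fit. Klf15 and Klf17 passed the filter and the threshold without the mESC library of 7462710 counts, in which both were lowest.

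For the factors behind its leading motifs, the study looked for expression above 2 log2CPM in mESCs and above that in MEFs. By mean log2CPM with a prior count of 2, 6 of the 10 genes met both conditions, namely Klf2, Klf3, Klf4, Klf5, Klf9 and Klf10. Klf10 met them with a difference of 0.29 log2CPM that did not pass the test. Klf6, Klf7, Klf13 and Klf16 were above 2 log2CPM in mESCs, with means from 3.61 (Klf7) to 7.01 log2CPM (Klf13), and were not higher than in MEFs. Among the 7 others, Klf8 (2.74 log2CPM) and Klf11 (4.38 log2CPM) met them. The count for the 10 genes was 7 without TMM scaling or without the mESC library of 7462710 counts, and 6 with thresholds of 1 or 3 log2CPM.

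Promoter sequence was taken for KLF genes from RefSeq on GRCm38.p6, where 7 of the 10 genes had an entry (all but Klf5, Klf10 and Klf16). The 250 bases before the RefSeq start site are printed for Klf4 and Klf2, which rose, and for Klf6, which fell. They show where the GC boxes that KLF proteins bind lie in the family's own promoters. Some RefSeq starts differ from the GENCODE gene bounds given above. By those bounds the windows of Klf2, Klf3 and Klf6 run past the gene start, and that of Klf7 lies inside the gene. Capitals mark GGGCGG or its complement on the printed strand. The windows are chr4:55532476-55532725 (minus strand) for Klf4, chr8:72318812-72319061 (plus strand) for Klf2 and chr13:5861239-5861488 (plus strand) for Klf6.
Klf4 promoter: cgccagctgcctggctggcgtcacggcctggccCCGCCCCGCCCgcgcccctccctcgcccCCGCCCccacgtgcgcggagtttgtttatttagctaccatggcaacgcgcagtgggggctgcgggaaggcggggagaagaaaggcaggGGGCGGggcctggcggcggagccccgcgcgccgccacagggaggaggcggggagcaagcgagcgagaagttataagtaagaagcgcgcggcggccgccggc
Klf2 promoter: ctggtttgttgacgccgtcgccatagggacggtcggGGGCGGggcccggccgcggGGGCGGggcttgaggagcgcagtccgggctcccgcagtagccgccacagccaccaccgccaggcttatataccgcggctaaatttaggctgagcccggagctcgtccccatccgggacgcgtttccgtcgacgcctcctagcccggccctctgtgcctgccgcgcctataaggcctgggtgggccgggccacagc
Klf6 promoter: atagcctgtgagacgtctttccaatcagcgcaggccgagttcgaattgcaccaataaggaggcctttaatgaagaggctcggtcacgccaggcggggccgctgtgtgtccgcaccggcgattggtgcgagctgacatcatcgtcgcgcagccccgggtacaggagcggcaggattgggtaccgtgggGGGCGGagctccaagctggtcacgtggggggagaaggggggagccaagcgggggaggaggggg
The window of Klf4 held 4 GC boxes (a pair of which overlap), that of Klf2 held 2 and that of Klf6 held 1. GGGCGG was found on either strand in 6 of the 7 windows and in 32.7% of the 32851 promoters in the table. The 7 windows were 59.2% (Klf7) to 78.4% (Klf3) G and C, and the other promoters were not matched for base content. Whether the windows held more matches than their base content gives was not tested. CACCC was found in 5 of the 7 windows and in 52% of all promoters. The HOMER motif of Klf4, taken as the letters GCCACACCCA, was found in none of the 7 windows and in 0.432% of all promoters. A match describes letters and not a bound site.

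The partners and ligases of KLF proteins were counted from a list of 17 genes, all tested. Of these, 6 were higher in mESCs, 5 were lower and 6 were not called, or 64.7% called beside 47.9% of all genes tested, with a median log2 fold change of 0.29 beside 0.04. The pair of C-terminal binding proteins, which Klf3 and its relatives recruit, moved in opposite directions. Ctbp2 rose from 37.7 ± 10.9 CPM (SD, n = 4) to 122 ± 13.1 CPM (SD, n = 3), which gave a log2 fold change of 1.70 ± 0.218 (SE) at an adjusted p of 9.66e-05, and Ctbp1 had -1.62 ± 0.184 (SE) at an adjusted p of 4.06e-05. Sin3a, the scaffold of the complex bound by Klf9, Klf10 and Klf13, had a log2 fold change of 1.32 (with adjusted p = 6.74e-05). Smurf1, a ubiquitin ligase, had -2.06 (adjusted p = 9.41e-05). Against a fold change of at least 2, 4 genes of the list passed, near the 24.1% of all genes tested.

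Upstream signals, receptors and transcription factors known to act on KLF genes made a list of 20 tested genes, of which 4 were higher, 12 were lower and 4 were not called, or 80% called beside the 47.9%, with a median of -1.11 beside 0.04. Socs3, a feedback inhibitor induced by STAT3, rose from 17.9 ± 7.33 CPM (SD, n = 4) to 172 ± 14.5 CPM (SD, n = 3), which gave a log2 fold change of 3.27 at an adjusted p of 5.51e-06. Foxo1, which activates Klf2 in T cells, had 1.59 (adjusted p = 0.00295). Mef2c, which acts on Klf2 and Klf4 in endothelium downstream of a MAP kinase cascade, had 221, 162, 423 and 287 counts in MEFs and 2, 4 and 2 in mESCs, with a log2 fold change of -6.81 (adjusted p = 2.19e-06). Tgfbr2, the receptor upstream of Klf10, had -3.93 (adjusted p = 1.28e-06).

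The LIF receptor pathway, named here for its role after the values were seen, did not move as a block. Lifr had a log2 fold change of 0.95 at an adjusted p of 0.000398. Il6st, the signalling partner of the receptor, had -2.60, Jak1 -1.57 and Stat3 -1.36, with adjusted p of 1.02e-05, 1.13e-05 and 0.000107. Stat3 had 117 ± 20.5 CPM in MEFs (SD, n = 4) and 45.7 ± 2.47 CPM in mESCs (SD, n = 3). Transcript levels of these genes do not measure the activity of the pathway.

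Genes reported as KLF targets were 16 of 17 tested, with 8 higher, 6 lower and a median of 0.65, or 87.5% called beside the 47.9%. Nanog and Esrrb of this list are also among the pluripotency markers above, and the list was chosen with earlier results known. Whether KLF proteins have a part in these changes was not tested. Tcl1 and Esrrb, which Klf factors bind in mESCs, had log2 fold changes of 7.52 and 7.26 (adjusted p = 2.76e-08 and 3.77e-08, edgeR), with 1 to 5 counts of Tcl1 and 3 to 12 of Esrrb in the MEF libraries. Thbd and S1pr1, known as targets of Klf2 in endothelium and lymphocytes, had -5.31 and -3.80 (adjusted p = 1.52e-05 and 4.44e-05), while Klf2 itself rose. Both were counted in every MEF library, with 39.3 to 59.3 CPM of Thbd and 12.7 to 21.1 CPM of S1pr1 in the MEF libraries.

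Several KLF genes, among them Klf2, Klf4, Klf6 and Klf10, are also induced within minutes of handling or serum, so a list of immediate-early genes was read beside them. Of 15 tested, 5 were higher, 5 were lower and 5 were not called, or 66.7% called beside the 47.9% of all genes tested, with a median of -0.39. Their summed level was 1244.4 to 1498.8 CPM in the MEF libraries and 1287.9 to 1595.8 CPM in the mESC libraries, so the ranges overlapped. The log2 fold changes ran from -2.43 for Ier3 and -2.08 for Jun to 2.49 for Fosb and 2.88 for Fos. Fos had 57.6 ± 28.6 CPM in MEFs (SD, n = 4) and 423 ± 65.5 CPM in mESCs (SD, n = 3). The part of these genes' signals in the KLF values was not tested.

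**Figure D5:**
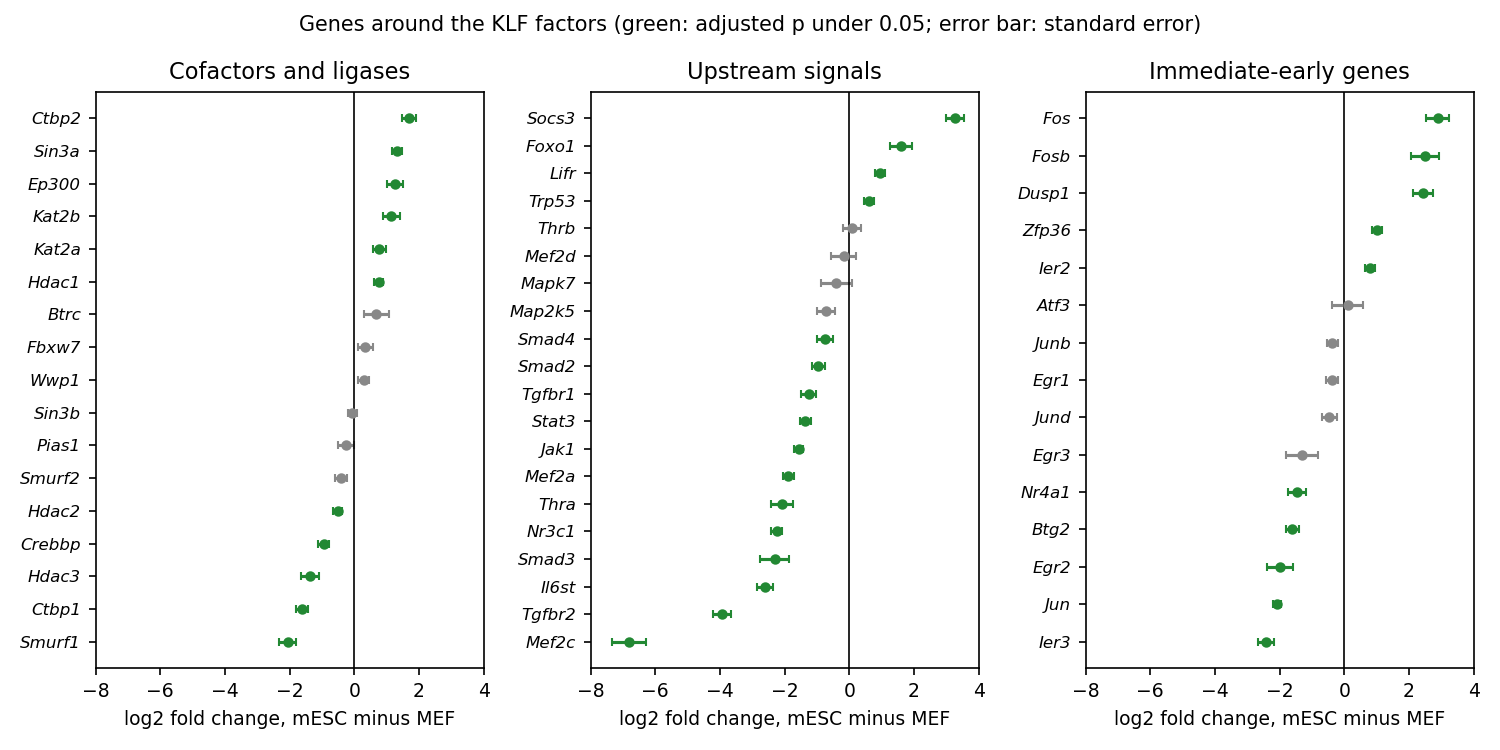
Log2 fold change (mESC minus MEF) with its standard error for the tested genes of the lists of cofactors and ligases (17), upstream signals (20) and immediate-early genes (15), with green for an adjusted p under 0.05 in edgeR. The cofactors run from -2.06 (Smurf1) to 1.70 (Ctbp2), most upstream signals lie left of 0 and the immediate-early genes spread to both sides.

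Markers of other cells in which KLF genes are high were also counted, with 40% of the tested endothelial, 37.5% of the blood and 55.6% of the epithelial markers called beside 47.9% of all genes tested. Of 9 endothelial markers 5 were tested and 2 were higher in mESCs, and the list summed to 39.1 to 44.8 CPM in MEFs and 89.8 to 119 CPM in mESCs. Pecam1 had a log2 fold change of 3.42 and Egfl7 of 1.65, while the defining marker Cdh5 had 9, 0, 11 and 20 counts in MEFs and 3, 1 and 0 in mESCs. Of 12 blood markers 8 were tested, with 1 higher (Kit, 2.60) and 2 lower (Cd53, -3.74, and Hba-a1, -3.62). The blood list summed to 25.2 to 44 CPM in MEFs and 46.8 to 53 CPM in mESCs, and Ptprc had 1, 6, 17 and 6 counts in MEFs and 0, 1 and 0 in mESCs. Of 9 epithelial markers 3 were higher and 2 were lower, with sums of 145 to 188 CPM in MEFs and 229 to 340 CPM in mESCs. Cldn4 (5.54) and Cldn7 (4.43) led the epithelial list, and Krt19 (-2.27) and Krt18 (-1.49) were lower. The part of such cells in the KLF values was not tested.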

How the data were processed

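RNA-seq gene counts of 4 MEF and 3 mESC libraries were analysed, with no ATAC-seq data used here. The authors aligned reads to GRCm38 (mm10) with STAR, collapsed molecular identifiers, and deposited whole-number counts per gene from featureCounts, without normalization. The submitters' processing notes name STAR 2.4.2a, and the paper's methods name a later version. The annotation release and strand setting are not given in the sources used here. The labels' extraction protocol speaks of other cells than MEFs and mESCs, so its library description may not apply. Group was taken from the cell type in each column name, and 0 value columns remained without use. Totals ran from 6528643 to 11441278 counts, and the floor of 3 counts covers counting error only.

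The edgeR 4.0.16 quasi-likelihood test (limma 3.58.1, R 4.3.3) with TMM and filterByExpr was fitted over all 7 libraries without covariates, and genes were called at a Benjamini-Hochberg adjusted p of 0.05. The log2CPM values used a prior count of 2. Shares and sums over KLF genes were not tested. The 10 genes and all lists were chosen with earlier results of these data known. All 17 KLF genes are named, and from other lists at most 2 genes in each direction, by fold change among those called, with the LIF receptor pathway and markers named beside them. Alternatives were DESeq2 1.42.0, no scaling, DESeq2 size factors in edgeR, no filter, a filter of 10 counts, a test against a fold change of 2, and leaving out each library. On simulated counts for 16580 genes, edgeR recovered 141 of 200 genes changed by 1 on the log2 scale with 9 false calls. It recovered 197 of 200 changed by 2 with 8. The simulation changed only these 200 genes. Its spread was the same for every gene and below the median biological coefficient of variation of the data (0.297). In the data 47.9% of genes were called, so these figures do not measure recovery there.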

Additional observations from a re-analysis of the deposited data

Results flagged for a closer look

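Over the 4 MEF libraries, 28 values were checked for a library far from the others by Dixon's criterion. Of these, 2 stood out, where chance would give about 1.4 if the values were independent. They are not, since levels and shares of the same genes are among them. The share of Klf4 in the family was 5.41% in the MEF library of 7312679 counts and 7.43% to 7.84% in the other MEF libraries, while its lowest mESC share was 26.5%. In the same library Klf6 had its highest MEF share, 34.3%. Klf17 had 0.0959 CPM in the MEF library of 11441278 counts, which is 1 count, against 0 in the other MEF libraries. The criterion always flags such a pattern.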

How the results depend on the processing

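Of 130 log2 fold changes of the 10 genes under an alternative, 121 kept their direction and side of the threshold, 5 lost the call (3 of Klf3 and 2 of Klf13), 2 gained it (Klf10) and 2 changed sign (Klf16). The number called was 7 to 9 when leaving out 1 library, 6 against a fold change of 2 and 7 or 8 otherwise. Klf2, Klf4, Klf5, Klf6, Klf7, Klf8, Klf9 and Klf14 kept their call and direction in every alternative. The log2 fold change of Klf4 ran from 2.73 to 3.13 and of Klf7 from -3.92 to -3.34. Klf16 had 0.09 without scaling, and leaving out 1 library gave -0.35 to 0.03 for Klf16, -1.53 to 0.01 for Klf1 and -0.12 to 0.36 for Klf12, none of which was called. The cause of these turns was not tested.

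Without scaling, all log2 fold changes moved up, their median from 0.04 to 0.32, and 60.8% of the called genes were higher in mESCs beside 47.7% with TMM (5180 higher and 3345 lower, beside 3785 and 4153). The family totals were then 1326.6 CPM in MEFs and 2730.8 CPM in mESCs. Against a fold change of 2, 3991 genes passed (1714 higher, 2277 lower), with 4 cofactors and ligases and 10 upstream signals. Without a filter, 5 of the other KLF genes, 5 endothelial and 6 blood markers were called, beside 2, 2 and 3 in the reported fit. The reported fit tested 5, 5 and 8 genes of these lists, and the fit without a filter took in more. Over all genes it called 9039, beside 7938. Its p-values are not comparable with those of the reported fit, as given above for Klf4. With at least 10 counts in every library of a cell type, 1 blood marker was called. Leaving out 1 library gave 2 to 4 called genes for the other KLF genes (highest without the mESC library of 7462710 counts), 2 to 4 endothelial markers (highest without the mESC library of 8193825 counts) and 1 to 3 blood markers (lowest without the MEF library of 11441278 or 9176467 counts).

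No paired analysis was possible because the count columns carry the same leading number for every library, so that the sample numbers of the labels could not be matched to them. The MEF column names also share the letter O and the mESC names the letter Y. The meaning of these letters is not given in the sources used here, and they cannot be told apart from cell type. Depth limits Klf15 and Klf17, with 0 to 6 counts in MEFs, and Klf1, Klf8 and Klf12, with at most 69 counts in any library.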
